A study of Camelus dromedarius with 30 samples.

Results

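The genes described here are 75 genes of RNA splicing and RNA helicase families, measured in the kidney of the dromedary camel (Camelus dromedarius). They were chosen by name: each carries a symbol starting with SF3, SRSF, HNRNP, SNRP, PRPF, LSM, RBM, DDX or DHX in the study's catalogues of RNAs or proteins that differed between hydration states, and was matched to the count table by its Ensembl identifier. The 75 members are a part of the 22444 genes in the table, and all of them passed the filter on low counts. The protein catalogue names 67 of them, whose place in it did not use these RNA counts. Per the study's methods, however, the proteins were measured in the same camels' kidneys as the RNA. The RNA catalogue names 17, of which 9 are also in the protein catalogue and 8 are not, and that catalogue was made from the same 30 libraries. Its list for rehydration against dehydration in the medulla was not used here, so the 17 cover the other comparisons only. Genes of these families outside the catalogues carry no symbol in the tables used here and were not analysed.

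Splicing removes introns from precursor RNA. The spliceosome does this with small nuclear ribonucleoproteins (snRNPs), each a short RNA held in a ring of Sm or LSM proteins with particle-specific partners, and U1 and U2 recognise the intron before the U4/U6.U5 tri-snRNP joins. DDX and DHX helicases use ATP to remodel RNA, some of them to drive steps of the spliceosome and others in ribosome assembly, mRNA decay or translation. SR proteins bind exons and mostly favour their inclusion, whereas hnRNPs coat nascent RNA and often oppose it.

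Poly(A) RNA was sequenced from the cortex and the medulla of the kidney of 15 male dromedaries aged 4 to 5 years. Of these, 5 control camels drank freely, 5 dehydrated camels went without water for 20 days, and 5 rehydrated camels went without water for 20 days and then drank freely for 3 days. All were fed. Each camel gave a cortex and a medulla library, so there were 30 libraries in 6 groups of 5. Gene counts per library summed to between 12634346 and 20005136 read pairs. Counts were scaled by edgeR's TMM method and levels are given in CPM, the read pairs of a gene per 1e6 pairs of the scaled library, as mean ± SD over 5 camels unless stated. A difference was called where the adjusted p of edgeR's quasi-likelihood test (Benjamini-Hochberg over the 15376 genes tested) was under 0.05. A count per gene says nothing of which exons were joined, so splicing itself was not measured.

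The tissue labels were checked against markers. In control camels SLC22A8, a transporter of the proximal tubule, was at 1079 ± 299 CPM in cortex and 35.8 ± 26.3 CPM in medulla, and UMOD, made by the thick ascending limb, was at 3609 ± 624 CPM in cortex and 16740 ± 2172 CPM in medulla. The endothelial gene PECAM1 was at 185 ± 10.1 CPM in cortex and 342 ± 13.9 CPM in medulla. AQP2, the water channel of the collecting duct, was at 199 ± 41.5 CPM in cortex and 286 ± 87.7 CPM in medulla, with overlapping groups. AQP3, also on the list for the collecting duct, was at 7.60 ± 1.43 CPM in cortex and 66.4 ± 47.1 CPM in medulla, without overlap. HSD11B2, on the same list, went the other way, at 511 ± 75.9 CPM in cortex and 157 ± 39.8 CPM in medulla, without overlap. The markers of this segment thus did not all point to 1 tissue. Of 41 markers looked for, 12 had a symbol, and none of podocytes or immune cells did. Symbols come from the study's catalogues of RNAs or proteins that differed between hydration states, so markers outside the catalogues could not be seen. In bulk tissue, fewer cells of a type and less RNA per cell cannot be told apart, and this holds for every difference below.

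Per transcript length (TPM, over the genes tested), the members were mostly well expressed. In cortex 74 of 75 and in medulla all 75 averaged at least 1 TPM over the 15 libraries of the tissue, and 19 and 30 averaged at least 100 TPM. The median member was at 44.3 TPM in cortex and 77.0 TPM in medulla. The highest levels in cortex were those of SRSF6 (338 ± 56.6 TPM, n = 15), SNRPD2 (302 ± 39.1 TPM) and DDX5 (299.7 ± 74.6 TPM), which lie within each other's SD. In medulla DDX5 stood first at 596 ± 105 TPM, above HNRNPH1 at 391 ± 83.7 TPM. The lowest were RBMS3 and SRSF12, at 0.934 ± 0.457 and 1.92 ± 0.857 TPM in cortex and 3.43 ± 1.596 and 2.78 ± 1.35 TPM in medulla. TPM values are relative to the other genes of a library, and comparisons between tissues below use TMM-scaled CPM. Summed over the 75 members, the scaled level was 9055 ± 460 CPM in control cortex and 8727 ± 230 CPM in control medulla.

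Many more members differed between the tissues than between hydration states. In control camels 49 of 75 members differed between medulla and cortex, 20 higher and 29 lower in medulla, where 60.9% of all genes tested differed (32.2% higher and 28.6% lower). The share among the members was thus near the background. The groups of 5 did not overlap for 26 members, against 42.9% of all genes. The median log2 fold change of the members was -0.14, against 0.10 for all genes tested. The direction of these counts depended in part on scaling: with DESeq2's size factors, 21 members were higher and 22 lower, and the median of all genes moved to 0.16. Role by role, most LSM and Sm proteins were called lower in medulla, and the highest values were those of the helicases DDX6 and DDX3X. The counts by role below have the same background, 32.2% higher and 28.6% lower, and each rests on few genes.

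**Figure D1:**
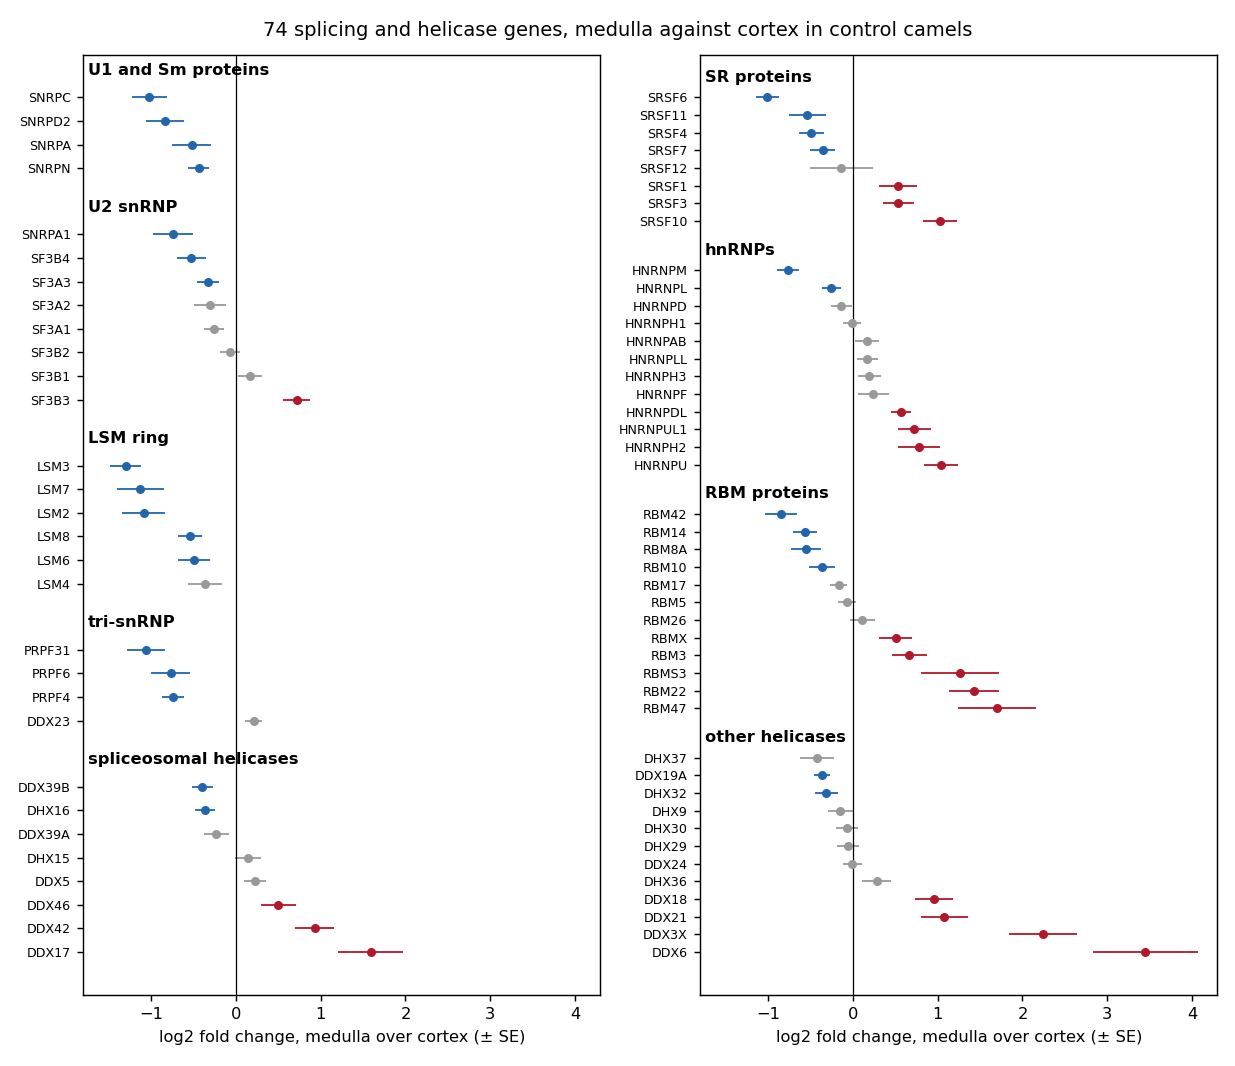
Log2 fold change of medulla over cortex in control camels (x axis, points with 1 SE, n = 5 camels per tissue) for 74 of the 75 members, grouped by role; red points are called higher and blue points called lower in medulla, grey points are not called. The LSM ring lies wholly to the left of 0, from -1.30 to -0.37, and the rightmost points are the helicases DDX6 at 3.45 and DDX3X at 2.24.

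The LSM ring sits on the 3′ end of U6 RNA in the nucleus, and a related ring acts in mRNA decay in the cytoplasm. All 6 LSM members had lower values in medulla, and 5 of them were called (LSM2, LSM3, LSM6, LSM7 and LSM8). LSM3 gave 105, 104, 133, 131 and 144 CPM in the 5 control cortex libraries and 60.0, 42.1, 63.2, 47.6 and 37.5 CPM in the medulla. These groups did not overlap, and LSM3 was 2.46-fold lower in medulla (log2 fold change -1.30, SE 0.19, adjusted p = 1.65e-06, edgeR). LSM7 gave 33.6, 29.5, 87.6, 43.2 and 54.5 CPM in cortex and 28.2, 22.8, 24.8, 21.3 and 16.3 CPM in medulla. Its groups stood apart by a narrow margin, with the cortex of control 3 far above the other 4 cortex values, and the log2 fold change was -1.13 (SE 0.28, adjusted p = 0.00105, edgeR). LSM2 was lower by a similar amount (-1.09, SE 0.25), with overlapping groups, and LSM4 was not called (-0.37, SE 0.20, adjusted p = 0.112, edgeR).

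Of the 5 proteins of U1 and of the Sm core, 4 were called lower in medulla and 1 was not called. SNRPC, the zinc-finger protein of U1, was at 81.0 ± 15.2 CPM in medulla and 164 ± 36.2 CPM in cortex, without overlap (-1.02, SE 0.20). SNRPD2, a subunit of the Sm ring, was at 117 ± 33.3 CPM in medulla and 208 ± 54.4 CPM in cortex (-0.84, SE 0.23), and here the groups overlapped. SNRPA, which binds a loop of U1 RNA, and SNRPN, a tissue-restricted Sm protein, were also called lower (-0.52 and -0.44).

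Of the 4 tri-snRNP members, 3 were called lower in medulla. PRPF31, which holds U4 and U6 together, gave 62.1, 52.7, 114, 82.0 and 86.5 CPM in cortex and 44.0, 38.3, 36.5, 38.4 and 33.7 CPM in medulla. The medulla values were close together and all below the lowest cortex value (-1.06, SE 0.22, adjusted p = 0.000227, edgeR). PRPF6 (-0.77, SE 0.23) and PRPF4 (-0.74, SE 0.13) also did not overlap between the tissues. DDX23, the helicase of the U5 particle, was at 124 ± 12.1 CPM in medulla and 108 ± 11.1 CPM in cortex and was not called.

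The 8 members of the U2 particle were mixed. SNRPA1, SF3B4 and SF3A3 were lower in medulla (-0.75, -0.52 and -0.33) and SF3B3 was higher, at 120 ± 9.01 CPM against 72.7 ± 13.1 CPM without overlap (0.72, SE 0.16). SF3B1, SF3B2, SF3A1 and SF3A2 were not called, with log2 fold changes from -0.31 to 0.17. SF3B1, which holds the branch site, was at 406 ± 51.7 CPM in medulla and 362 ± 48.2 CPM in cortex.

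Among the 8 helicases of splicing, 3 were higher and 2 lower in medulla (32.2% and 28.6% of all genes tested). DDX17, a paralog of DDX5 that acts in transcription and alternative splicing, was at 216 ± 58.5 CPM in medulla and 71.4 ± 41.2 CPM in cortex (1.59, SE 0.38, adjusted p = 0.000901, edgeR). DDX42 (0.93) and DDX46 (0.50), both tied to the U2 particle, were higher too. DDX39B, which loads U2 and also serves mRNA export, and DHX16, which activates the spliceosome, were lower (-0.40 and -0.36). DDX5, DHX15 and DDX39A were not called.

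The SR proteins divided into 3 higher and 4 lower of 8 (32.2% and 28.6% of all genes tested). SRSF6 was lower in every medulla library (214 to 326 CPM) than in any cortex library (459 to 606 CPM), with a log2 fold change of -1.01 (SE 0.14, adjusted p = 7.94e-07, edgeR). SRSF10 was higher, at 50.8 ± 8.91 CPM against 24.8 ± 5.10 CPM (1.03, SE 0.20), and the groups did not overlap. SRSF1 and SRSF3 were higher by about the same step (0.53 and 0.54), and SRSF4, SRSF7 and SRSF11 were lower (-0.49, -0.36 and -0.54). SRSF12 was at 1.17 ± 0.262 CPM in medulla and 1.27 ± 0.299 CPM in cortex.

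Of the 12 hnRNPs, 4 were higher and 2 lower in medulla (32.2% and 28.6% of all genes tested), and the remaining 6 were not called. HNRNPU, a nuclear scaffold protein that binds RNA and DNA, was at 391 ± 29.2 CPM in medulla and 191 ± 52.3 CPM in cortex without overlap (1.04, SE 0.20). HNRNPH2, HNRNPUL1 and HNRNPDL were higher by 0.57 to 0.78 on the log2 scale. HNRNPM went the other way, at 206 ± 20.4 CPM in medulla and 350 ± 54.7 CPM in cortex (-0.77, SE 0.13), and HNRNPL was lower by a small step (-0.26). HNRNPH1, among the most abundant members, was at 467 ± 16.7 and 471 ± 24.6 CPM.

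The 12 RBM proteins held 5 that were higher and 4 that were lower in medulla (32.2% and 28.6% of all genes tested). RBM47, a cofactor of RNA editing and a splicing regulator, gave 12.6, 10.6, 2.37, 4.27 and 3.15 CPM in cortex and 15.9, 24.8, 13.1, 25.2 and 29.5 CPM in medulla. The lowest medulla value lay just above the highest cortex value, and the log2 fold change was 1.70 (SE 0.46, adjusted p = 0.00254, edgeR). RBM22, a protein at the active centre of the spliceosome, was higher by 1.43 (SE 0.29), and RBMS3, RBM3 and RBMX were also higher. RBM42, RBM14, RBM8A (a core protein of the exon junction complex) and RBM10 were lower, by -0.85 to -0.37.

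The widest differences were those of helicases outside the spliceosome. DDX6 represses translation and promotes mRNA decay in cytoplasmic granules, and its gene lies on chromosome 33 of CamDro2 (10679296 to 10701471, minus strand). It gave 4.59, 4.07, 0.493, 2.35 and 0.464 CPM in cortex and 14.3, 34.4, 12.5, 32.01 and 42.0 CPM in medulla. Every medulla library was above every cortex library, and DDX6 was 10.9-fold higher in medulla (3.45, SE 0.62, adjusted p = 3.65e-05, edgeR). DDX3X, which helps to start translation on structured leaders, lies on the X chromosome (33038825 to 33065460, plus strand). It gave 37.6, 35.5, 13.6, 20.6 and 17.4 CPM in cortex and 69.4, 156, 65.1, 146 and 154 CPM in medulla, again without overlap (4.72-fold, 2.24, SE 0.40, adjusted p = 3.37e-05, edgeR). DDX21 and DDX18, which act in ribosome assembly, were higher by 1.08 and 0.96. DDX19A, of mRNA export, and DHX32 were lower by -0.36 and -0.31, and DHX9, DHX29, DHX30, DHX36, DHX37 and DDX24 were not called. DDX3X in male animals, DDX39A with DDX39B, and HNRNPH1 with HNRNPH2 have close relatives, and reads may have been shared among these copies.

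**Figure D2:**
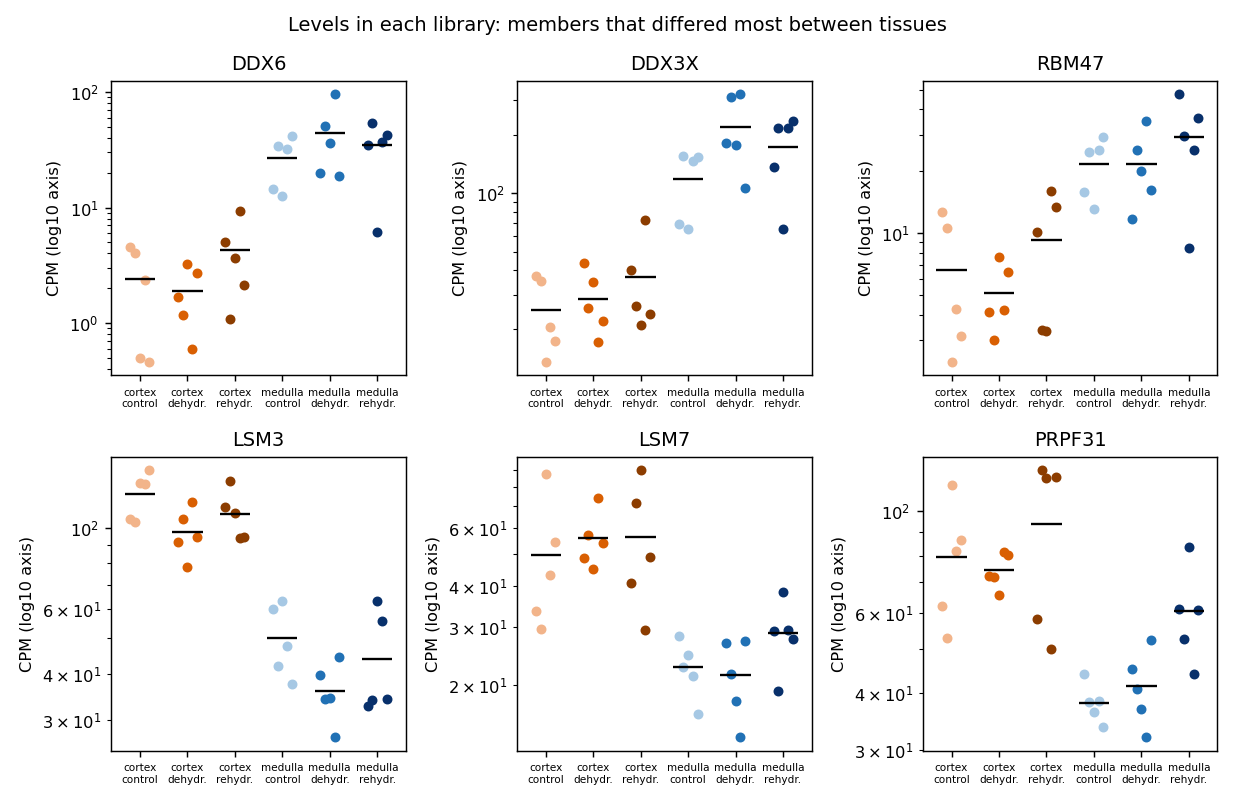
Level in each library (CPM, log10 axis) of the 3 members highest and the 3 lowest in medulla relative to cortex in control camels among those called without overlap, for the 6 groups of 5 camels; the points are libraries in order of camel number and the black lines are group means. DDX6, DDX3X and RBM47 sit higher in medulla and LSM3, LSM7 and PRPF31 lower, and the rehydrated medulla library with the lowest DDX6 (6.11 CPM) is also the lowest in DDX3X and RBM47.

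The tissue difference could be read in 3 sets of camels that share no library. In dehydrated camels 55 members differed (65.4% of all genes tested), and the groups did not overlap for 55 members (54.8% of all genes). In rehydrated camels 45 differed (61.1%), and 11 did not overlap (30.3%). In all 3 sets 16 members were called higher (24.6% of all genes tested) and 21 were called lower (21.9%), 13 were called in none, and 6 did not overlap in any set (21.3%). The 16 were DDX3X, DDX6, DDX17, DDX18, DDX21, DDX42, DDX46, HNRNPDL, HNRNPU, HNRNPUL1, RBM22, RBM47, RBMX, SF3B3, SRSF1 and SRSF10. The 21 held LSM2, LSM3, LSM7 and LSM8, SNRPA, SNRPC, SNRPD2, SNRPN and SNRPA1, PRPF4 and PRPF31, and also HNRNPL, HNRNPM, RBM8A, RBM14, RBM42, SRSF6, SF3A3, DDX19A, DDX39B and DHX32. All 18 values of the 6 LSM genes in the 3 sets were below 0, and they were also below 0 with DESeq2's size factors (-1.35 to -0.31). With those size factors, 17 members were higher and 15 lower in all 3 sets, and these held all 16 and 15 of the 21.

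**Figure D3:**
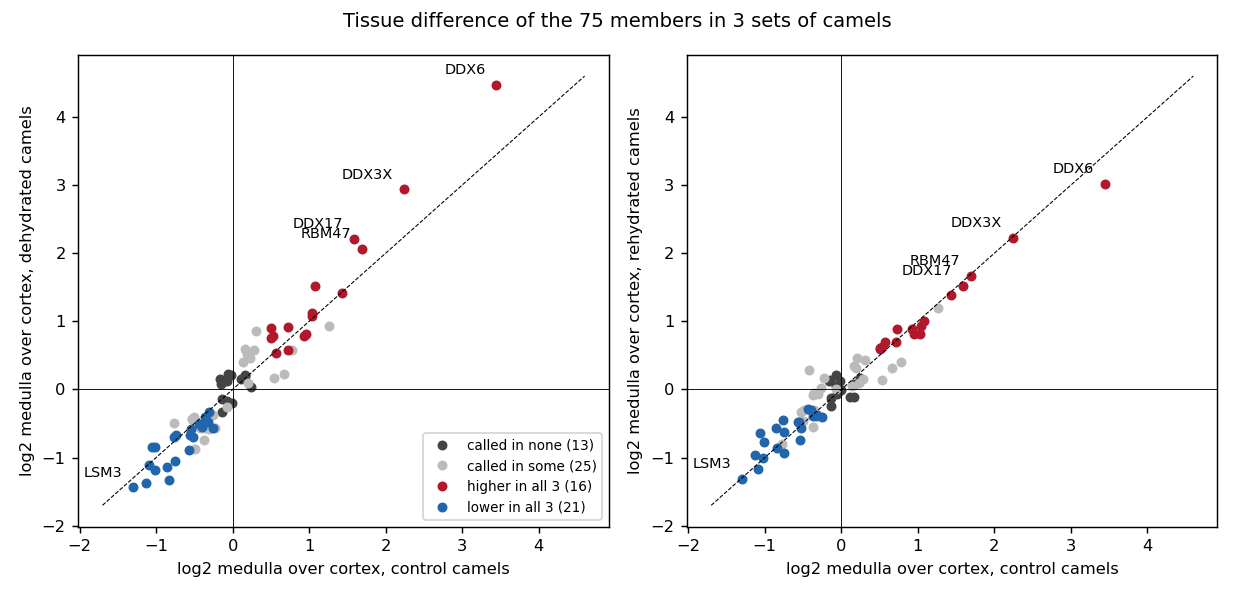
Log2 fold change of medulla over cortex for the 75 members in control camels (x axis) against the same in dehydrated camels (left y axis) and rehydrated camels (right y axis); each point is a member, coloured by its calls, and the dashed line marks equal values. The 16 members called higher in all 3 sets and the 21 called lower lie near the line, and DDX6 is the farthest out, at 3.45 in control, 4.47 in dehydrated and 3.02 in rehydrated camels.

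The 6 members without overlap in any set were LSM3, SRSF6, PRPF4, DDX19A, HNRNPU and HNRNPDL. HNRNPU ranged from 109 to 242 CPM in control cortex and from 366 to 441 CPM in control medulla. In dehydrated camels it ranged from 188 to 263 and from 437 to 579 CPM, and in rehydrated camels from 124 to 318 and from 366 to 489 CPM. DDX19A differed by little (-0.36, -0.40 and -0.38) and still without overlap, since its coefficient of variation within a group was small, with a median of 7.08% over the 6 groups, the lowest of all members.

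Members differed widely in how far camels of a group varied. The median coefficient of variation over the 6 groups was 64.5% for DDX6, 45.3% for RBM47, 44.2% for RBMS3, 42.1% for DDX3X and 36.1% for DDX17. The same libraries were often extreme. The medulla of dehydrated camel 4 was the highest of its group for all 16 members called higher in medulla in all 3 sets, and the lowest for 15 of the 21 called lower. The medulla of rehydrated camel 3 was the lowest for 14 of the 16 and the highest for 13 of the 21, and the cortex of control camel 3 was the lowest for 13 of the 16. These libraries stood out in the same way over all genes of each pattern, for 68.8% and 58.0%, for 65.4% and 59.7%, and for 56.4%. Their RNA integrity numbers (RIN) were 8.9, 8.0 and 8.2, where cortex had a median of 7.8 (7.1 to 8.7) and medulla of 8.8 (8.0 to 9.1). The medulla minimum of 8.0 was shared by rehydrated camel 3 and control camel 3. The medulla of control camel 3 was likewise the lowest of its group for 10 of the 16 and the highest for 12 of the 21 (39.7% and 40.3% over all genes). The medulla of control camel 5, with the next RIN of 8.1, went the other way. It was the highest for 5 of the 16 and the lowest for 13 of the 21 (24.9% and 23.8% over all genes).

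DDX6 gave 19.9, 50.4, 35.9, 95.5 and 18.9 CPM in the medulla of dehydrated camels and 34.8, 54.5, 6.11, 36.8 and 42.4 CPM in that of rehydrated camels. The value of 6.11 CPM lay within the cortex range of the rehydrated camels, 1.09 to 9.42 CPM. Without that library, 48 members differed between the tissues in rehydrated camels. RIN differed between the tissues, and with RIN as a covariate 44, 45 and 31 members differed in control, dehydrated and rehydrated camels. No share of all genes is given for these fits, so whether the counts changed more for the members than for other genes cannot be told. The members called higher in all 3 sets were also longer, with a median length of 3140 bases against 1880 bases for those called lower, and all genes tested gave 2803 and 1784 bases for the same patterns. The part of RNA quality and transcript length in the tissue differences was not tested beyond these values.

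A list of other splicing genes, drawn from textbook complexes, matched 52 of its 95 names. These too carry symbols because they stand in the study's catalogues. Of the 52, 10 were higher and 19 lower in medulla of control camels (background 60.9%), with a median log2 fold change of 0.03. BCLAF1 (1.90, SE 0.35) and QKI (1.79, SE 0.39), both regulators of alternative splicing, were the highest. The lowest were CCAR1 (-1.31, SE 0.20) and USP39, a factor of tri-snRNP joining (-1.04, SE 0.12).

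Few members were called after water deprivation, at shares near those of all genes tested. In the cortex, 2 of 75 members differed between dehydrated and control camels (2.45% of all genes tested), and 1 of them was among the 67 that the protein catalogue names. In the medulla 1 of 75 differed (1.68%), and none of the 67. The groups did not overlap for 6 members in cortex (5.53% of all genes) and 5 in medulla (3.79%). Of these, 2 in cortex and 4 in medulla are among the 67, and the others are in the RNA catalogue alone. The 2 in cortex, SRSF4 and DDX39A, also stand in the RNA catalogue, as do HNRNPH1 and HNRNPM in the medulla. That catalogue was made from these libraries, so these counts are not independent of them. The members leaned upwards all the same: 52 of 75 had positive values in cortex and 53 of 75 in medulla (69.3% and 70.7%, against 50.4% and 51.4% of all genes), with medians of 0.10 in both tissues (all genes 0.00 and 0.01). These are descriptions, since the members were partly chosen on these libraries and move together between camels. The summed level of the members was 9632 ± 431 CPM in dehydrated and 9055 ± 460 CPM in control cortex, and 9560 ± 504 and 8727 ± 230 CPM in medulla. The ranges of these sums overlapped in both tissues, and in rehydrated camels the sums were 9068 ± 410 and 9049 ± 503 CPM. The SE of a member's log2 fold change between conditions had a median of 0.17.

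**Figure D4:**
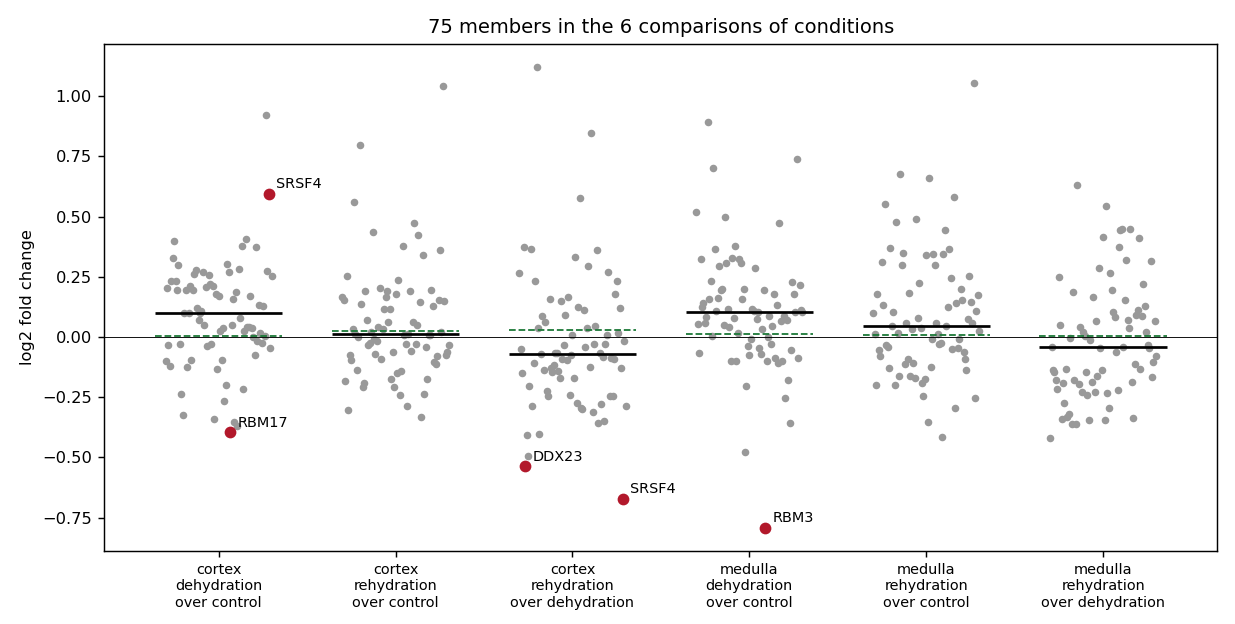
Log2 fold change of the 75 members (points, in alphabetical order within each column) in the 6 comparisons of conditions; black lines are the members' medians, green dashed lines the medians of all genes tested, and red points the members called. The called points are SRSF4 at 0.60 and RBM17 at -0.40 in the first column, DDX23 at -0.54 and SRSF4 at -0.67 in the third, and RBM3 at -0.79 in the fourth; most other points lie within 0.5 of 0.

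SRSF4, an SR protein rich in serine and arginine repeats, rose in the cortex with dehydration and fell on rehydration. Its gene lies on chromosome 13 (20881777 to 20906930, minus strand), and it stands in both catalogues. The RNA catalogue lists it for dehydration against control in the cortex, from these libraries, so its direction and adjusted p there are not independent of them. Rehydration against dehydration uses the same dehydrated libraries, so that comparison is not free of the listing either. SRSF4 gave 116, 111, 173, 154 and 163 CPM in control cortex, 196, 241, 204, 264 and 178 CPM in dehydrated cortex, and 129, 159, 160.0, 110 and 123 CPM in rehydrated cortex. Every dehydrated library was above every control and every rehydrated library. The log2 fold change was 0.60 (SE 0.15, adjusted p = 0.0256, edgeR) for dehydration against control and -0.67 (SE 0.15, adjusted p = 0.0146, edgeR) for rehydration against dehydration. Without the cortex library of control camel 1 or 2, or of dehydrated camel 2 or 4, the adjusted p for dehydration was between 0.0748 and 0.0863. In the medulla the same comparison gave 119 ± 9.28 CPM in dehydrated and 102 ± 12.2 CPM in control camels.

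DDX23 fell in the cortex on rehydration. It gave 115, 131, 127, 132 and 129 CPM in dehydrated and 85.8, 75.4, 99.4, 88.7 and 87.2 CPM in rehydrated cortex, and the groups did not overlap. The log2 fold change was -0.54 (SE 0.11, adjusted p = 0.00604, edgeR), and it was under 0.05 with each library left out. The control cortex lay between, at 108 ± 11.1 CPM. DDX23 and SRSF4 were the 2 of 67 protein-listed members called in this comparison (2.32% of all genes tested). DDX23 is also listed by the RNA catalogue for it, from these libraries. Its direction, its adjusted p and the fits with a library left out are thus not independent of that listing. In this comparison 7 of 75 members did not overlap (4.36%), and 5 of them are protein-listed. The 7 include DDX23, DDX24, DDX39A, DHX16, SF3A1 and SF3B2, which the RNA catalogue lists for this comparison, so this count is not independent of the libraries either.

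Some markers of other cells also differed in the same cortex libraries. Markers carry symbols only through the study's catalogues of differing RNAs or proteins, so markers that did not differ were mostly out of view. SLC17A3, of the proximal tubule, was at 585 ± 126 CPM in control, 94.6 ± 17.3 CPM in dehydrated and 389 ± 106 CPM in rehydrated cortex. PECAM1 was at 185 ± 10.1, 310 ± 21.3 and 180 ± 24.7 CPM and UMOD at 3609 ± 624, 5986 ± 1342 and 3553 ± 873 CPM. Their part in the values of SRSF4 and DDX23 was not tested.

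**Figure D5:**
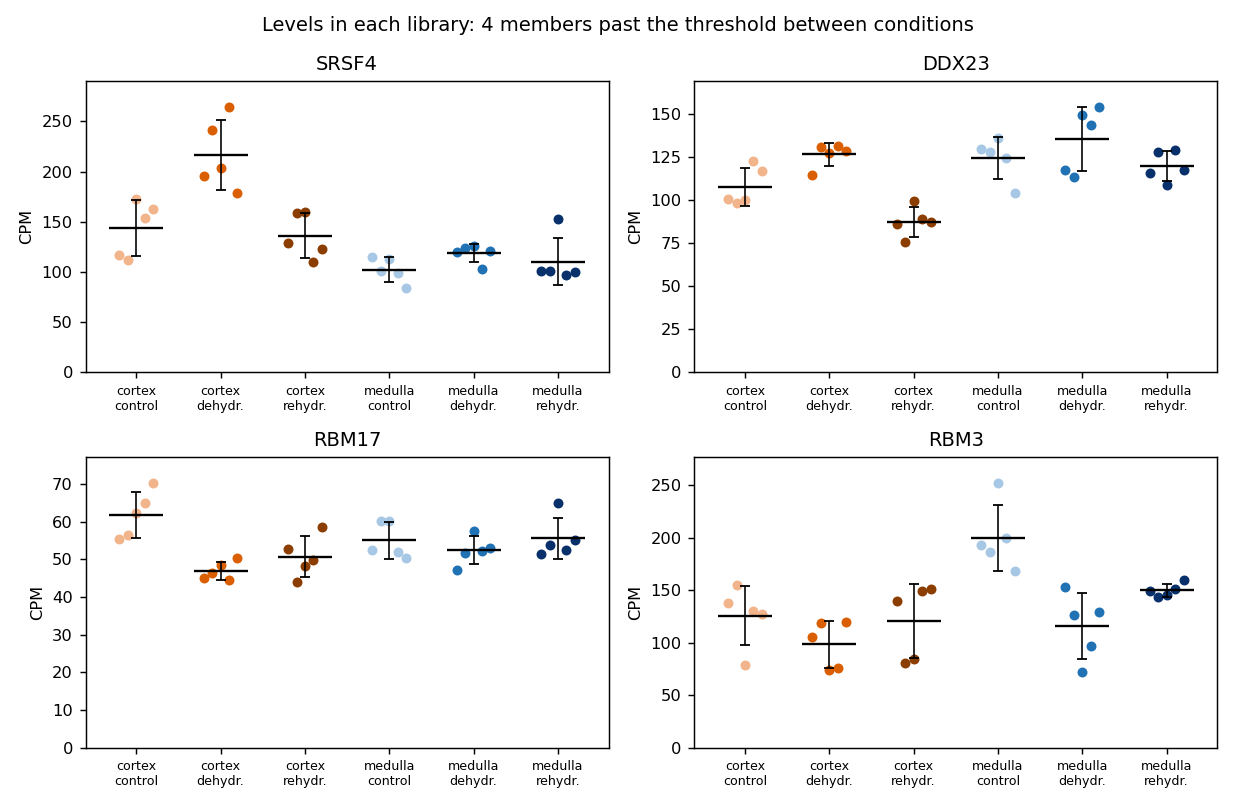
Level in each library (CPM, axis from 0) of the 4 members called between conditions, in the 6 groups of 5 camels; points are libraries, black lines group means and bars 1 SD. SRSF4 peaks in dehydrated cortex at 217 CPM, DDX23 is lowest in rehydrated cortex at 87.3 CPM, RBM17 is lowest in dehydrated cortex at 47.0 CPM, and RBM3 is highest in control medulla at 200.1 CPM.

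RBM17 and RBM3 are in the RNA catalogue alone, and the study listed each for the comparison in which it was called here, so their values are given without a test. RBM17, which binds SF3B1 and takes part in the choice of splice sites, gave 55.4, 56.4, 62.2, 65.0 and 70.2 CPM in control cortex and 45.0, 46.5, 48.4, 44.6 and 50.3 CPM in dehydrated cortex. The groups did not overlap, and the log2 fold change was -0.40 (SE 0.10). RBM3, known as a cold-inducible RNA-binding protein, gave 194, 186, 252, 200.2 and 168 CPM in control medulla and 153, 127, 72.1, 97.3 and 129 CPM in dehydrated medulla. Again no values overlapped (-0.79, SE 0.20). In rehydrated medulla RBM3 was at 150 ± 6.33 CPM, below each control value.

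The RNA catalogue lists 7 members for rehydration against dehydration in the cortex, and all 7 had lower values in rehydrated camels. DDX23 is described above. DDX24, a helicase of the nucleolus, gave 97.1, 87.7, 81.5, 92.5 and 80.6 CPM in rehydrated and 113, 130.5, 108, 116 and 114 CPM in dehydrated cortex (-0.41, SE 0.11). DDX39A, a paralog of DDX39B, gave 28.6, 24.9, 27.9, 30.9 and 24.1 against 34.6, 45.5, 34.4, 41.2 and 36.6 CPM (-0.49, SE 0.15). DHX16 gave 31.9, 30.2, 36.4, 28.6 and 30.4 against 42.4, 45.5, 39.0, 41.1 and 40.3 CPM (-0.40, SE 0.12). None of these 3 overlapped between the groups. The others belong to the U2 particle, except RBM5, a regulator of splicing in genes of cell death. SF3A1 gave 121, 120.1, 100.4, 108 and 117 CPM in rehydrated and 133, 140.1, 138, 169.5 and 145 CPM in dehydrated cortex (-0.36, SE 0.12). SF3B2 gave 266, 255, 224, 256 and 268 against 307, 336, 328, 313 and 328 CPM (-0.35, SE 0.12), and RBM5 335, 266, 246, 286 and 271 against 341, 364, 324, 391 and 322 CPM (-0.31, SE 0.10). Of the 7, RBM5 alone had overlapping groups, and all 7 log2 fold changes lay between -0.54 and -0.31. Since the list was made from these libraries, its direction is no independent evidence.

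For dehydration in the medulla the catalogue lists RBM3 and 3 further members, which had higher values in dehydrated camels. DHX9, a helicase of many nuclear RNA steps, gave 57.2, 56.7, 61.0, 73.1 and 53.0 CPM in dehydrated and 44.4, 40.6, 35.5, 54.8 and 38.1 CPM in control medulla (0.50, SE 0.14). SF3B1 gave 533, 558, 641, 709.5 and 379 against 388, 432, 350.2, 482 and 378 CPM (0.47, SE 0.14). HNRNPH1 gave 517, 624, 666, 639 and 487 against 472, 476, 439, 482 and 464 CPM (0.33, SE 0.11). All dehydrated values of HNRNPH1 lay above its control values. DHX9 and SF3B1 overlapped their control groups. In SF3B1 this came from dehydrated camel 5, while the other 4 lay above every control library. In the same medulla libraries AQP2 was at 502 ± 176 CPM in dehydrated and 286 ± 87.7 CPM in control camels, and AQP3 at 171 ± 97.8 and 66.4 ± 47.1 CPM. HSD11B2 was at 74.7 ± 23.2 and 157 ± 39.8 CPM, and COL3A1, of fibroblasts, at 65.5 ± 24.1 and 124 ± 41.7 CPM. These markers too carry symbols only through the catalogues, and their part in these values was not tested.

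For rehydration against control in the medulla the catalogue lists DHX30, DHX37, HNRNPM and SRSF12, again with higher values in rehydrated camels. DHX30, of mitochondrial ribosome assembly, gave 72.1, 65.2, 64.9, 58.3 and 68.1 CPM in rehydrated and 48.2, 54.0, 40.4, 51.7 and 41.4 CPM in control medulla, without overlap (0.48, SE 0.13). HNRNPM gave 221, 285, 358, 278 and 304 against 224, 183, 212, 224 and 185 CPM (0.49, SE 0.13), and only rehydrated camel 1 lay within the control range. DHX37, of small-subunit ribosome assembly, gave 32.3, 22.7, 25.1, 15.4 and 25.5 against 16.9, 17.6, 14.5, 14.0 and 12.7 CPM (0.68, SE 0.20), with rehydrated camel 4 among the controls. SRSF12 gave 2.09, 3.44, 2.42, 2.44 and 1.67 against 1.195, 1.193, 1.113, 1.53 and 0.793 CPM (1.05, SE 0.30), and its values rest on few reads. The SRSF12 groups did not overlap.

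Among the 67 protein-listed members, 4 comparisons gave no call with edgeR. For rehydration against control in the cortex (0.0845% of all genes tested), 3 of 67 had an unadjusted p under 0.05 (8.28% of all genes), and neither DESeq2 nor limma-voom called any. Of all 75 members, 1 did not overlap between these groups (1.08%). HNRNPAB had the smallest p there, with 100.2, 87.5, 77.9, 128 and 90.2 CPM in rehydrated and 80.7, 72.7, 45.1, 83.8 and 75.6 CPM in control cortex, which overlapped (0.44, SE 0.14, adjusted p = 0.263, edgeR). For dehydration in the medulla 9 of 67 had an unadjusted p under 0.05 (13.4%), DESeq2 called 2 and limma-voom none, and SF3B1 had the smallest p (adjusted p = 0.0839, edgeR). For rehydration against control in the medulla (0.813%), 9 of 67 were under 0.05 unadjusted (14.7%), DESeq2 called 2 and limma-voom none, and DHX30 came first (adjusted p = 0.0658, edgeR). Between these groups 6 of 75 members did not overlap (2.79%), and 4 of them are protein-listed. The 6 include DHX30 and SRSF12, which the RNA catalogue lists for this comparison. The study made that catalogue with DESeq2 from these libraries. DESeq2's calls in the medulla, and the first places of SF3B1 and DHX30, are thus not independent of it.

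For rehydration against dehydration in the medulla (3.67%), 9 of 67 were under 0.05 unadjusted (20.0%), and neither other tool made a call. A single member of 75 did not overlap (4.75%). DHX29, which helps the ribosome to scan, had the smallest p there. It gave 45.8, 42.6, 54.1, 57.6 and 49.3 CPM in dehydrated and 35.6, 43.3, 36.9, 43.6 and 34.8 CPM in rehydrated medulla, and these overlapped (-0.36, SE 0.13, adjusted p = 0.101, edgeR).

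Whether the tissues responded differently was tested by the difference between their log2 fold changes. None of the 75 members was called for dehydration (0.0455% of all genes tested) or for rehydration against control (0.0%) with edgeR, and DESeq2 and limma-voom called none either. At an unadjusted p under 0.05 there were 3 and 2 members (7.56% and 5.07% of all genes), of which 2 and 0 are in the protein catalogue. The 2 for rehydration were DHX37 and RBM17, which the RNA catalogue alone names, DHX37 for rehydration against control in the medulla, so these values are not independent of the choice of members. Beside its medulla values above, DHX37 gave 15.3, 22.0, 23.6, 13.5 and 25.3 CPM in rehydrated and 17.5, 14.1, 24.8, 20.8 and 24.4 CPM in control cortex, which overlapped. The SE of these differences had a median of 0.24 over the members, which limits how small a difference in response could be seen.

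Of the 52 other splicing genes, 1 was called for dehydration in the cortex (2.45% of all genes tested). It was GEMIN4, of the complex that assembles Sm rings (0.58, SE 0.13, adjusted p = 0.0107, edgeR). None was called in the medulla by edgeR (1.68%), where 10 had an unadjusted p under 0.05 (13.4%), and DESeq2 called 1 and limma-voom 0. On rehydration against dehydration in the cortex (2.32%), ESRP2, an epithelial splicing regulator, fell by 0.59 on the log2 scale (adjusted p = 0.0468, edgeR). There DESeq2 called 3 genes of the list and limma-voom 0. In the medulla (3.67%) edgeR called PPWD1 and SLU7, which fell by 0.40 and 0.42, and DESeq2 called 4 and limma-voom 3. No gene of the list was called for rehydration against control in cortex (0.0845%) or medulla (0.813%), with 3 and 6 at an unadjusted p under 0.05 (8.28% and 14.7%). DESeq2 called 0 and 0 and limma-voom 0 and 0. These genes carry symbols through the catalogues, and the RNA catalogue was made from these libraries. Calls between conditions may thus not be independent of that choice.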

How the data were processed

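Poly(A) RNA of 30 kidney libraries was measured, in 6 groups of 5 camels. Per the study's methods the authors trimmed reads with BBDuk, and per the file headers they counted read pairs per gene by strand with featureCounts on the Ensembl annotation of CamDro2; the methods and the file headers name different aligners. The deposited values are raw counts per gene, not normalised, and the spread of a level includes counting error, which is large for members near 1 CPM. The table holds 22444 genes. Symbols come from the catalogues of the study, joined by identifier, and 5 were added from RefSeq by NCBI gene number; the catalogues' own fold changes and p-values were not used. The members and lists were chosen with earlier results of these data known. All 75 members enter the counts and medians, and 1 of them is not reported singly here.

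Counts were filtered with filterByExpr (at least 10 counts, 15 in total), which left 15376 genes, scaled by TMM and fitted with edgeR 4.0.16 (quasi-likelihood, R 4.3.3) in 1 model of the 6 groups, with Benjamini-Hochberg adjustment and a threshold of 0.05. The SE is the size of the log2 fold change divided by the square root of F, and TPM uses the table's gene lengths. Members called or listed by the study, the 3 highest and 3 lowest between the tissues without overlap, and the member of smallest p where none was called are given by library. DESeq2 1.42.0, limma-voom (limma 3.58.1), DESeq2 size factors, other filters, RIN as a covariate, a block and libraries left out were tried. The fits were tested on simulated data.

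Per the study's methods, cortex and medulla came from the same camels, and here they were matched by the replicate number in the labels. Within control, dehydrated and rehydrated camels the correlation of a camel's deviations between its tissues ran from -0.0787 to 0.336, from -0.139 to 0.25 and from -0.42 to 0.411, and further codes in the labels of rehydrated camels do not match between tissues. The matching of tissues in rehydrated camels is thus in doubt. The block on the animal, which relies on this matching, is given with the alternatives. Between conditions camels share only a number. All 60 pairs of libraries within groups differed by more than counting error (chi-square per degree of freedom at least 19.7).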

Additional observations from a re-analysis of the deposited data

Results flagged for a closer look

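The gap between 1 library and the rest of its group of 5 passed Dixon's 95% critical value for 2 of 57 combinations of named member and group, and chance gives about 1 in 20. DDX23 in the cortex of dehydrated camel 1 was at 114.7 CPM, below the other 4 dehydrated libraries at 127 to 132 CPM. It was still above every rehydrated library. HNRNPAB in the cortex of control camel 3 was at 45.14 CPM, below the other 4 control libraries at 72.7 to 83.8 CPM. No response differed between the tissues by the test of that difference.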

How the results depend on the processing

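No log2 fold change of a named member changed sign under any alternative run for it. In rehydrated camels the tissue split of 21 members higher and 24 lower turned to 22 and 19 with DESeq2 and 21 and 20 with its size factors, and the median of all members went from 0.01 to -0.02 with RIN as a covariate. Between the tissues, the counts of called members were 36 to 49 in control, 45 to 57 in dehydrated and 30 to 45 in rehydrated camels over the alternatives, and 38 to 50, 51 to 55 and 31 to 48 with 1 library left out. No share of all genes is given for these fits, so the counts cannot be set beside a background. With the animal as a replicate block, 42, 53 and 44 members differed, of which 42, 53 and 43 were among those called without it. The block changed no call on a difference in response. In rehydrated camels the matching of tissues behind this block is in doubt. The split in control camels is given with DESeq2's size factors in the results. The tissue calls of DDX6, DDX3X, RBM47, LSM3, LSM7 and PRPF31 held under every alternative run. The few calls between conditions were less stable. For dehydration in the cortex the count of 1 protein-listed member became 0 at an adjusted p under 0.01 and with the libraries of the tissue alone, and was 0 to 1 with a library left out. For rehydration against dehydration in the cortex the count of 2 became 1 at that threshold, 1 with the tissue alone and 5 with DESeq2. In the medulla, DESeq2 called 2 members for dehydration and 2 for rehydration against control, where edgeR called none. With a library left out, the counts with edgeR were 0 to 1 in both. The RNA catalogue, which names 9 of the 67 protein-listed members, was made by the study with DESeq2 from these libraries. DESeq2's counts between conditions, the 5 in cortex included, are thus not independent of it. For dehydration, RBM17 in the cortex and RBM3 in the medulla each had 9 alternatives and 10 fits with a library left out. RBM17 lost its call in 9 of these fits and RBM3 in 10. SF3B1 was called without the medulla of dehydrated camel 5 (0.59, adjusted p = 0.0173, edgeR), and DHX30 without that of control camel 2 or of rehydrated camel 4. With the replicate number as a replicate block within a tissue, the counts were 1 and 2 in cortex and 0 in medulla, as without it. The cause of these changes was not tested. Members near 1 CPM, such as SRSF12 and RBMS3, are limited by depth.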
